A study of Mus musculus with 6 samples.

Results

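The genes of cholesterol and fatty acid synthesis were compared in mouse embryonic stem cells (mESC) with intact *Tet* genes (*Ctrl*) and after their deletion (*Tet iTKO*). They were chosen by name as a list of 32 genes, most of them enzymes that turn acetyl-CoA into cholesterol or into long-chain fatty acids. The others, called regulators here, are proteins that switch these enzymes on or hold them back (*Srebf1*, *Srebf2*, *Scap*, *Insig1* and *Insig2*) and the sterol carrier *Stard4*. Of the 22380 gene identifiers in the data, 31 belonged to listed genes, and all 31 passed the filter on low values (a mean of at least 10 normalized counts over the 6 libraries). *Hmgcs1* was not analysed here.

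RNA was measured in bulk by Smart-Seq2, a method that copies full-length polyadenylated RNA, in 3 *Ctrl* and 3 *Tet iTKO* libraries. All cells carried a *CreERT2* wt/ki transgene, which the human ubiquitin C promoter drives, and the *Gt(ROSA)26Sor tm1Ytchn* wt/ki reporter, and the *Tet iTKO* cells carried *Tet1/2/3* fl/fl alleles in addition. Both groups were grown on feeder fibroblasts in 2i medium and received 4-hydroxytamoxifen (tamoxifen in the labels) at 1 µM for 2.5 days. They were cultured for 4 more days and taken at day 6.5 as live CD326+ GFP+ Thy1.2- cells. Thus the *Ctrl* cells had been through Cre activation as well. *Tet iTKO* libraries are therefore populations in which floxed alleles were recombined during the drug treatment, not clones. Per the study's reporting summary, each genotype was studied in 3 mESC populations derived from separate embryos, and the labels do not tie a library to an embryo.

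Normalized counts summed to 4210784 to 4219665 in *Ctrl* and to 3964824 to 3996522 in *Tet iTKO* libraries, and 13431 to 13539 and 14024 to 14363 genes were above 0. Stem cell markers such as *Pou5f1* and *Nanog* were abundant in every library (5208 to 5804 and 1181 to 1339 normalized counts in *Ctrl*, 4318 to 4775 and 991 to 1056 in *Tet iTKO*), and their list of 8 genes summed to 15866 to 16423 against 14786 to 15429, with *Fut4* at 0 to 2. Of the 7 of these tested, *Pou5f1*, *Nanog* and *Zfp42* were lower in *Tet iTKO* (-0.29, -0.30 and -0.35 on the log2 scale, limma adjusted p = 5.7e-06, 0.00038 and 0.0064), and *Esrrb* and *Epcam*, the gene of the sort marker CD326, were higher (0.29 and 0.45, adjusted p = 0.0003 and 4.5e-06). A correction for transcript GC content and length, described below, left *Pou5f1* lower (-0.20, limma adjusted p = 0.00045) and *Epcam* higher (0.53, 2.6e-07). *Nanog*, *Zfp42* and *Esrrb* were not called after it (-0.10, -0.10 and 0.05, adjusted p = 0.26, 0.48 and 0.57), and *Tdgf1* was called higher (0.20, 0.00015). *Zfp42* also lost its call without *Tet iTKO* replicate 2 (adjusted p = 0.11), and *Pou5f1* with quantile normalization (-0.08, 0.2). Over the whole gene, which includes exons that were not floxed, *Tet1* had 696, 682 and 716 normalized counts in *Ctrl*, against 787, 895 and 753 in *Tet iTKO*, *Tet2* had 249, 170 and 230 against 233, 268 and 211, and *Tet3* had 28, 13 and 13 against 10, 3 and 3, so these counts do not check the deletion of exons in *Tet1* and *Tet2*. A list of 10 feeder fibroblast genes summed to 286 to 298 in *Ctrl* and to 497 to 561 in *Tet iTKO*. *Col1a1*, *Col1a2* and *Col3a1* carried most of this sum. Of the 4 feeder genes tested, these 3 were higher (0.89, 1.17 and 1.36, limma adjusted p = 4.1e-07, 0.00033 and 0.0003). Each kept its call after correction and without each library in turn. *Thy1*, the gate's own marker, had 30, 46 and 41 against 47, 35 and 23 and was not called (limma adjusted p = 0.69). *Col6a1* had 4, 6 and 3 against 15, 18 and 5, and *Dcn* had 2, 3 and 15 against 1, 2 and 6. *Pdgfrb*, *Postn*, *Lum* and *Twist1* were at 0 to 9. The part of feeder RNA in the results below was not tested, and in bulk libraries fewer cells of a type and less RNA per cell cannot be told apart.

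Cholesterol synthesis begins with the mevalonate pathway, which builds isoprenoids, and continues from squalene through lanosterol to cholesterol. Fatty acid synthesis uses the same acetyl-CoA, which citrate lyase makes in the cytosol, and is followed by elongation and desaturation of the chain. Both branches are switched on by the SREBP transcription factors, which stay in the endoplasmic reticulum with SCAP and INSIG while sterols are plentiful and move to the Golgi to be cleaved when sterols fall.

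Promoter sequence was available for 25 of the 32 genes (33 windows of RefSeq, build GRCm38.p6, each from 250 bases before to 50 after a transcription start). The windows of *Fasn*, which had the smallest adjusted p of the list, of *Idi1* and *Mvk*, mevalonate enzymes that moved in opposite directions, and of *Ebp*, which fell furthest, stand as examples of each behaviour. They were picked among called genes with a single window that holds CCAAT boxes, so their own boxes do not show how common the box is. Capitals mark the CCAAT box, the 5 letters CCAAT or, on the other strand, ATTGG. The *Fasn* window lies at chr11:120824498-120824797 on the minus strand, that of *Idi1* at chr13:8885356-8885655 on the plus strand, that of *Mvk* at chr5:114444019-114444318 on the plus strand and that of *Ebp* at chrX:8193463-8193762 on the minus strand.
Fasn: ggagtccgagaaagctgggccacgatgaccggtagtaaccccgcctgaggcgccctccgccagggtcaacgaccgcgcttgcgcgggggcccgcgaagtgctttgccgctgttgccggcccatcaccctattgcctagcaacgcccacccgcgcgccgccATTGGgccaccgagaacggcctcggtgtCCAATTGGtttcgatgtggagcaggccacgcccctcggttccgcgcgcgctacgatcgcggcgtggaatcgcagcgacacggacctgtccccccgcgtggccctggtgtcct
Idi1: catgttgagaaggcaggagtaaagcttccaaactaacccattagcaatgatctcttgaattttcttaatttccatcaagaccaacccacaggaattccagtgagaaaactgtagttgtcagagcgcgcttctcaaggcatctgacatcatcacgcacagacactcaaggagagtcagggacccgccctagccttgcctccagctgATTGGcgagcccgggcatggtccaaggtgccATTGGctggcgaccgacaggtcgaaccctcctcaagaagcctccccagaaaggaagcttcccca
Mvk: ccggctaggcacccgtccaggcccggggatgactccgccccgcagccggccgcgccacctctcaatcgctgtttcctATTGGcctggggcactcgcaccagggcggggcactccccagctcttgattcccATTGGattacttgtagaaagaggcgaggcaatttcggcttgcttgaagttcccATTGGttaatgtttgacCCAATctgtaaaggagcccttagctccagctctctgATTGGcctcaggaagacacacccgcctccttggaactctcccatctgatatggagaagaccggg
Ebp: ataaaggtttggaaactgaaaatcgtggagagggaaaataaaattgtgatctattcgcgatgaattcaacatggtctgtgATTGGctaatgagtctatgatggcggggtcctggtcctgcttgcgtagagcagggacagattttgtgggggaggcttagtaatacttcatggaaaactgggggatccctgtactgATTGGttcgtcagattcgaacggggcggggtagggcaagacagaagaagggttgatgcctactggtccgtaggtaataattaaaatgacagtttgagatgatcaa
The *Mvk* window holds 5 CCAAT boxes, *Fasn* 3, *Idi1* 2 and *Ebp* 2. In *Fasn* a forward and a reverse box overlap as CCAATTGG. A CCAAT box was found in 21 of the 33 windows (63.6%), against 37.4% of all 32851 windows of the table, and the median number of CpG dinucleotides was 21, against 7. Among windows of genes called higher, lower and not called, 7 of 13 (53.8%), 3 of 4 (75%) and 10 of 15 (66.7%) held a CCAAT box. These windows belong to 8, 4 and 12 genes. A gene with several windows is counted several times, so these shares do not compare genes. The sterol response element core, TCACNCCAC on either strand, stood in 1 window (3.03%, against 1.24% of all windows), that of *Hmgcs1*. The E-box CACGTG stood in 6 (18.2%, against 7.15%). Among these are the *Scap* windows, which overlap and share 1 E-box that was counted in each. These are matches of letters, and nothing was measured here of a factor at them.

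Across the 31 genes, *Tet iTKO* mESC had 11 with higher and 5 with lower counts (limma adjusted p under 0.05), while 15 were not called. The log2 fold changes ran from -0.70 for *Ebp* to 0.87 for *Acaca*, with a median of 0.11, against 0.01 over all 10524 genes tested. Over all genes, 16.4% were called higher and 18.4% lower, against 35.5% and 16.1% of the listed genes. *Tet iTKO* libraries lay entirely above *Ctrl* for 12 genes and entirely below for 6, where 21.2% and 22.9% of all genes did so, and groups overlapped for 13. The calls fell unevenly over the roles: of 8 fatty acid genes 5 were higher and none lower, of 6 regulators 3 were higher and none lower, and among 17 enzymes from acetyl-CoA to cholesterol 3 were higher and 5 lower. At an unadjusted limma p under 0.05, 6 of the fatty acid genes and 3 of the regulators were higher, and 0 of either were lower. At that threshold 2 mevalonate enzymes were higher and 2 lower, and 2 squalene-to-cholesterol enzymes were higher and 3 lower. The share of all genes at an unadjusted p under 0.05 was not counted, so such counts have no background here or below. With library totals made equal, 15 of the listed genes were higher and 3 lower (2319 and 1428 of all genes), and with quantile normalization 13 were higher and 3 lower (1795 and 1761). *Acat2* and *Mvk* lost their call under both, and *Fdps*, *Lss* and *Acly* gained one under both. *Tm7sf2* gained a call with equal totals, and *Acaca* lost its call with quantile normalization (limma adjusted p = 0.058). Without a trend of variance on expression 6 were higher and 3 lower, and *Acat2*, *Mvk*, *Mvd*, *Idi1*, *Srebf1*, *Acaca* and *Fads1* were not called.

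**Figure D1:**
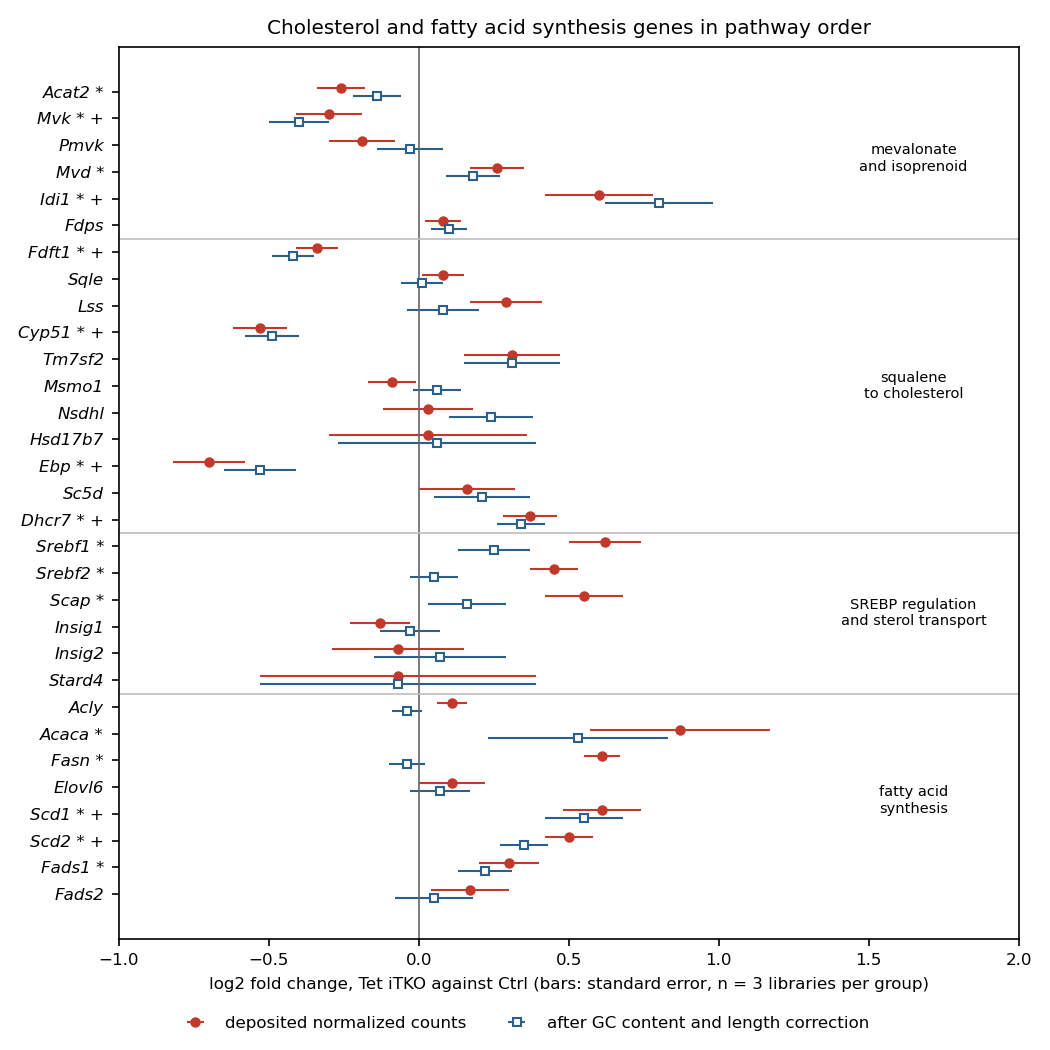
Log2 fold change of each of the 31 genes in *Tet iTKO* against *Ctrl* mESC, arranged by role, with bars for the standard error (n = 3 libraries per group). A star marks a gene called in the comparison and a plus sign a gene still called once GC content and length were corrected for. Circles show the deposited normalized counts and open squares the values after that correction. The circles of fatty acid genes all lie at or right of 0.11, and those of the sterol enzymes lie on both sides of 0. After correction *Fasn* and *Acly* stand at -0.04, *Fads2* at 0.05 and *Elovl6* at 0.07.

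Fold changes of these libraries followed transcript properties, which bears on each gene below. Length and GC content were those of the longest annotated transcript of each gene, whether or not it was the one expressed. Over 10457 genes, log2 fold change had a Spearman correlation of 0.258 with transcript GC content and 0.293 with length, and over the 31 listed genes of 0.24 and 0.55. Genes called higher had a median length of 4299 bases and GC content of 52.8%, those called lower 2380 bases and 50.9%, and those not called 3150 bases and 48.2%, against 3352 bases and 50.0% for all genes tested. After a correction for both properties, 4 of the listed genes were higher (*Idi1*, *Dhcr7*, *Scd1* and *Scd2*) and 4 lower (*Mvk*, *Fdft1*, *Cyp51* and *Ebp*), with a median of 0.07, while 12.3% and 14.3% of all genes were. *Acat2*, *Mvd*, *Srebf1*, *Srebf2*, *Scap*, *Acaca*, *Fasn* and *Fads1* were no longer called, and no gene was gained. Whether length and GC content move with the measurement or with the cells was not tested.

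**Figure D2:**
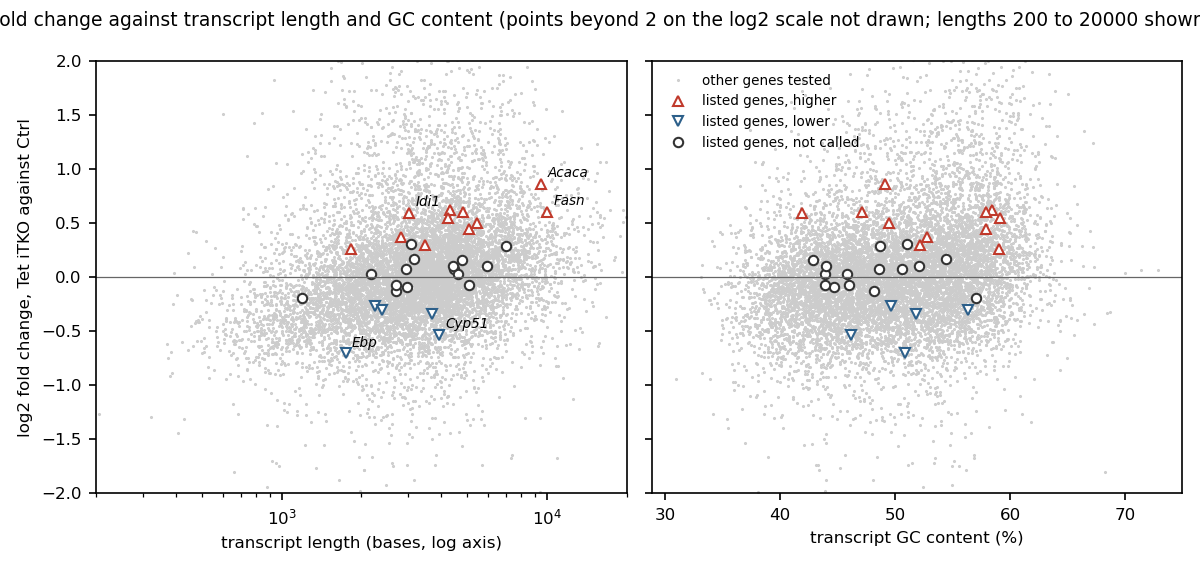
Log2 fold change against transcript length (bases, log axis) and against transcript GC content (percent) for all genes tested, with the listed genes on top. Genes beyond 2 on the log2 scale or outside the drawn range of lengths are left out. *Fasn* and *Acaca* lie at the long end and *Ebp* among the short transcripts.

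In the mevalonate branch, which makes the isoprenoid units, 2 of 6 genes rose and 2 fell. *Acat2* and *Mvk* were lower, and *Mvd* and *Idi1*, which act at isopentenyl diphosphate, were higher. *Mvk*, mevalonate kinase, had 338, 332 and 404 normalized counts in *Ctrl*, against 292, 273 and 304 in *Tet iTKO* (log2 fold change -0.30, standard error 0.11, limma adjusted p = 0.024). *Acat2*, a cytosolic thiolase that joins acetyl-CoA units, had 641, 561 and 616 against 523, 510 and 481 (-0.26, standard error 0.08, limma adjusted p = 0.012). All 3 *Tet iTKO* libraries lay below all *Ctrl* libraries for both. *Mvk* was not called without *Ctrl* replicate 3 (-0.21, limma adjusted p = 0.17) or without *Tet iTKO* replicate 2 (-0.26, adjusted p = 0.1), and *Acat2* not without *Ctrl* replicate 1 (-0.22, adjusted p = 0.063) or *Tet iTKO* replicate 3 (-0.23, adjusted p = 0.064). After correction *Mvk* stood at -0.40 (limma adjusted p = 0.0032) and *Acat2* at -0.14 (adjusted p = 0.21).

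*Idi1*, the isomerase of isopentenyl diphosphate, had 70, 90 and 114 normalized counts in *Ctrl*, against 138, 142 and 130 in *Tet iTKO* (0.60 on the log2 scale, standard error 0.18, limma adjusted p = 0.0087, and 0.80 with adjusted p = 0.00099 after correction). The *Tet iTKO* libraries all lay above the *Ctrl* libraries, which spread over a wider range. Without *Ctrl* replicate 1, the lowest of these, the change was 0.43 (limma adjusted p = 0.074). *Mvd*, the decarboxylase that makes isopentenyl diphosphate, had 373, 381 and 402 against 445, 479 and 464 (0.26, standard error 0.09, limma adjusted p = 0.021), without overlap. It lost its call in 4 of the fits that left out a library: *Ctrl* replicate 1 (0.24, adjusted p = 0.06), *Ctrl* replicate 2 (0.26, 0.055), *Tet iTKO* replicate 2 (0.24, 0.088) and *Tet iTKO* replicate 3 (0.26, 0.057), and stood at 0.18 after correction (adjusted p = 0.12). *Pmvk*, the kinase after *Mvk*, had 257, 277 and 295 against 251, 242 and 233 (-0.19, limma adjusted p = 0.2), the groups just apart. *Fdps*, which joins the units into farnesyl diphosphate, was the most abundant of the branch at 1305, 1415 and 1357 against 1459, 1379 and 1458 (0.08, 95% interval -0.05 to 0.20, limma adjusted p = 0.35), and it was called with equal totals (0.16, adjusted p = 0.033) and quantile normalization (0.18, 0.013).

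Of the 11 enzymes from squalene to cholesterol, 3 fell, 1 rose and 7 did not pass the test. *Fdft1* at the start of the route, *Cyp51* in the middle and *Ebp* late in it were lower. *Ebp*, the sterol isomerase, had 280, 244 and 265 normalized counts in *Ctrl*, against 158, 164 and 161 in *Tet iTKO* (log2 fold change -0.70, standard error 0.12, limma adjusted p = 2.7e-05), and 61.2% of the *Ctrl* mean was left. *Cyp51*, lanosterol demethylase, had 606, 609 and 471 against 381, 390 and 388 (-0.53, standard error 0.09, limma adjusted p = 2.9e-05). *Fdft1*, squalene synthase, had 973, 962 and 941 against 789, 728 and 763 (-0.34, standard error 0.07, limma adjusted p = 0.00021). For each of the 3 genes all *Tet iTKO* libraries were below all *Ctrl* libraries, and the call held without each library in turn and after correction, at -0.53 for *Ebp*, -0.49 for *Cyp51* and -0.42 for *Fdft1*. For *Cyp51* the *Tet iTKO* libraries differed by less than the *Ctrl* libraries did, of which replicate 3 was lowest.

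*Ebp* is X-linked, and transcripts of the Y-linked genes *Ddx3y*, *Eif2s3y*, *Kdm5d* and *Uty* were counted in all 6 libraries, *Eif2s3y* at 363, 344 and 375 against 182, 181 and 178 (limma adjusted p = 5.6e-09). *Ddx3y*, *Kdm5d* and *Uty* overlapped between groups and were not called (adjusted p = 0.2, 0.11 and 0.22). *Nsdhl*, the other X-linked enzyme of the list, had 139, 211 and 197 against 182, 175 and 194 (0.03, 95% interval -0.26 to 0.33, limma adjusted p = 0.89), and its sign turned without *Ctrl* replicate 1 (-0.15). Because Smart-Seq2 does not keep strand, reads in exons shared with a gene on the other strand could not be assigned for certain: *Fdft1* shares 774 exon bases with *Ctsb* (728, 957 and 925 against 816, 711 and 776) and *Cyp51* shares 166 with *Akap9* (85, 99 and 87 against 100, 93 and 88). *Tm7sf2*, a sterol reductase, shares 532 bases with *Vps51* on the same strand. *Fdps* shares 1124 of 4208 exon bases with *Gm43738* on the same strand. On the other strand *Scap* shares 985 with *5830462I19Rik*, *Lss* 381 with *4930483K19Rik* and *Idi1* 323 with *Gm48574*. *5830462I19Rik* had 0, 0 and 1 normalized counts against 0, 0 and 0, and the data do not list *Gm43738*, *4930483K19Rik* or *Gm48574*. *Elovl6*, *Scd2* and *Srebf1* have smaller overlaps.

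*Dhcr7*, a reductase of the final steps, had 419, 450 and 437 normalized counts in *Ctrl*, against 574, 521 and 592 in *Tet iTKO*. It was the single squalene-to-cholesterol gene that rose (log2 fold change 0.37, standard error 0.09, limma adjusted p = 0.00091), without overlap, in each fit that left out a library and after correction (0.34, adjusted p = 0.0019). *Lss*, which closes the sterol ring, had 207, 212 and 195 against 235, 280 and 237. Its groups did not overlap but its change of 0.29 missed the threshold (limma adjusted p = 0.062). *Lss* passed it with equal totals (0.37, adjusted p = 0.015) and quantile normalization (0.32, 0.042). After correction *Lss* stood at 0.08 (adjusted p = 0.67). *Tm7sf2* had 124, 109 and 157 against 153, 152 and 173 (0.31, limma adjusted p = 0.13), and passed the test without *Ctrl* replicate 3 (0.45, adjusted p = 0.039). *Sqle*, which oxidizes squalene and is a control point of the pathway, had 780, 784 and 802 against 798, 823 and 878 (0.08, 95% interval -0.07 to 0.22, limma adjusted p = 0.43). *Msmo1*, a sterol C4-demethylation enzyme, had 600, 547 and 619 against 530, 563 and 569 (-0.09, limma adjusted p = 0.44), and *Sc5d*, a desaturase, 183, 141 and 165 against 243, 134 and 184 (0.16, limma adjusted p = 0.46). *Hsd17b7*, a sterol ketoreductase, was low at 44, 34 and 23 against 31, 33 and 36, with a 95% interval of -0.64 to 0.70 on both sides of 0.

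**Figure D3:**
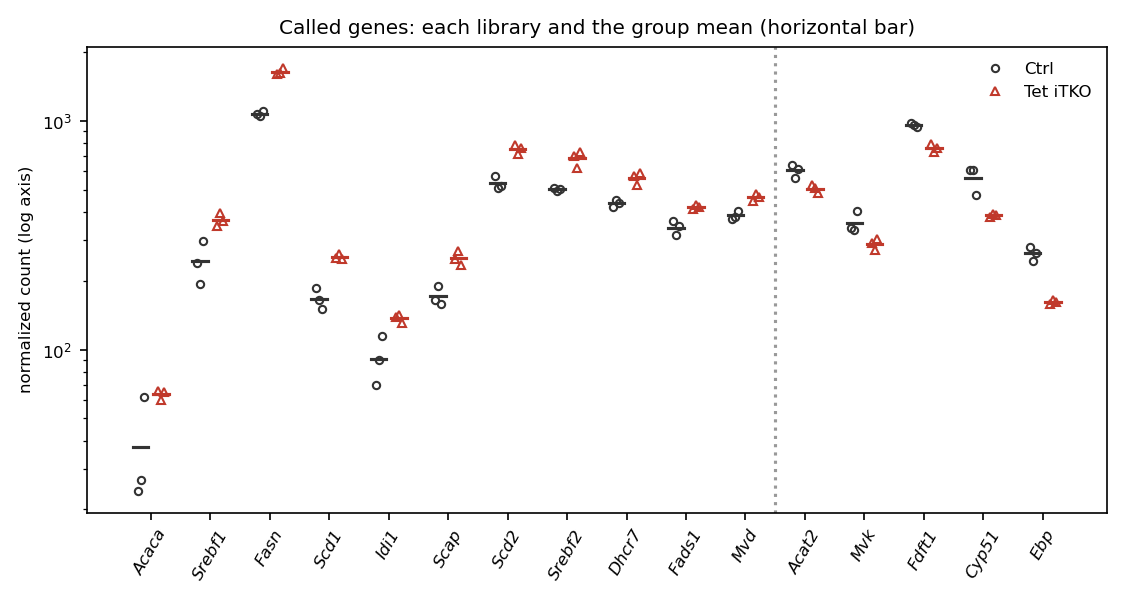
Normalized counts of each called gene in each library (log axis), with a horizontal bar for the group mean; a dotted line sets genes that were higher in *Tet iTKO* apart from genes that were lower. Groups overlap in *Acaca* alone among these genes.

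Among the regulators, the genes of the SREBP factors and of SCAP had higher counts, and the genes of the INSIG proteins showed no call. *Srebf2*, the factor of sterol genes, had 509, 491 and 501 normalized counts in *Ctrl*, against 699, 620 and 733 in *Tet iTKO* (log2 fold change 0.45, standard error 0.08, limma adjusted p = 4.3e-05). *Scap*, the escort protein, had 165, 190 and 158 against 248, 270 and 234 (0.55, standard error 0.13, limma adjusted p = 0.00077). *Srebf1*, the factor more tied to fatty acid genes, had 238, 193 and 297 against 346, 394 and 366 (0.62, standard error 0.12, limma adjusted p = 9.1e-05). In all 3 genes the groups did not overlap and the call held without each library in turn, but that of *Srebf1* was lost without the variance trend (limma adjusted p = 0.051). None of the 3 was called once GC content and length were corrected for (1 of the 6 regulators was higher there at an unadjusted limma p under 0.05), at 0.05 for *Srebf2* (limma adjusted p = 0.71), 0.16 for *Scap* (adjusted p = 0.39) and 0.25 for *Srebf1* (adjusted p = 0.11), and their GC contents of 57.9%, 59.1% and 58.4% lie above the median of all genes. *Srebf1* shares 109 exon bases with *Rai1* on the other strand (12, 22 and 18 normalized counts against 27, 51 and 35).

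*Insig1*, which holds SCAP in the endoplasmic reticulum and is itself a sterol-regulated gene, had 426, 397 and 337 normalized counts in *Ctrl*, against 352, 386 and 322 in *Tet iTKO* (-0.13, 95% interval -0.34 to 0.08, limma adjusted p = 0.36). *Insig2*, its paralog, had 61, 90 and 69 against 70, 79 and 59 (-0.07, interval -0.53 to 0.38, limma adjusted p = 0.84). *Stard4*, a sterol carrier, had 16, 17 and 16 against 14, 19 and 14, so a change anywhere from -1 to 0.86 lies within its interval. The log2 ratio of *Insig1* to *Scap* within a library was 1.36, 1.06 and 1.09 in *Ctrl* and 0.50, 0.51 and 0.46 in *Tet iTKO*, a difference of -0.68. These ratios did not overlap, at p = 0.1 in an exact two-sided permutation test, which is the smallest that 3 against 3 libraries allow, and 0.5 after adjustment over 5 ratios. After correction the difference was -0.19. The ratio of *Srebf1* to *Srebf2* differed by 0.17 (exact two-sided permutation p = 0.4) and that of *Insig1* to *Insig2* by -0.06 (exact p = 1.0).

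In fatty acid synthesis 5 of 8 genes rose and none fell, the largest share of higher calls among the 4 roles (62.5%), and 2 of the 8 were called after correction. The estimates of the 3 others lay above 0 before correction. *Fasn*, the synthase that builds palmitate and the longest transcript of the list (10050 bases), had 1071, 1045 and 1107 normalized counts in *Ctrl*, against 1602, 1621 and 1696 in *Tet iTKO*. On the log2 scale it rose by 0.61 (standard error 0.06, limma adjusted p = 3.4e-10), and the spread within a group was small beside the gap between groups. Corrected for GC content and length, *Fasn* stood at -0.04 (limma adjusted p = 0.63), so its call rests on the uncorrected values. *Acaca*, acetyl-CoA carboxylase, which makes the malonyl-CoA used by *Fasn*, had 24, 27 and 62 against 66, 60 and 65 (0.87, standard error 0.30, limma adjusted p = 0.021). *Acaca* overlapped between groups, since *Ctrl* replicate 3 was at the level of *Tet iTKO*, and the call was lost without *Ctrl* replicate 1 (0.62, adjusted p = 0.12), *Ctrl* replicate 2 (0.70, 0.094), *Tet iTKO* replicate 1 (0.84, 0.075) and *Tet iTKO* replicate 3 (0.86, 0.071), and after correction (0.53, 0.19). *Acly*, citrate lyase, had 2359, 2243 and 2264 against 2520, 2436 and 2457. These groups did not overlap, but the change of 0.11 missed the threshold (limma adjusted p = 0.088). *Acly* passed it with equal totals (0.20, adjusted p = 0.0023) and quantile normalization (0.24, 0.00025). After correction *Acly* stood at -0.04 (adjusted p = 0.55).

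Of the 4 desaturase genes of the list, which place double bonds in fatty acid chains, *Scd1*, *Scd2* and *Fads1* rose and *Fads2* did not pass the test. *Scd2* had 572, 507 and 519 normalized counts in *Ctrl*, against 782, 717 and 761 in *Tet iTKO* (0.50, standard error 0.08, limma adjusted p = 4e-06), and *Scd1* had 185, 165 and 151 against 252, 262 and 249 (0.61, standard error 0.13, limma adjusted p = 0.00022). Both were without overlap, held their call without each library in turn, and after correction stood at 0.35 and 0.55 (limma adjusted p = 0.00069 and 0.00083). Their paralog *Scd3* had 4, 8 and 9 against 6, 36 and 17 (limma adjusted p = 0.16), and *Scd4* was listed at 0 in all libraries. Any reads that align equally well to several of these genes would not be counted, and how many do so was not worked out. The log2 ratio of *Scd1* to *Scd2* differed by 0.11 (exact two-sided permutation p = 0.4), so a difference between *Scd1* and *Scd2* was not resolved. *Fads1*, the delta-5 desaturase, had 363, 315 and 345 against 413, 428 and 419 (0.30, standard error 0.10, limma adjusted p = 0.012), lost its call without *Ctrl* replicate 2 (0.25, adjusted p = 0.072) and stood at 0.22 after correction (adjusted p = 0.075). *Fads2*, the delta-6 desaturase, had 202, 189 and 174 against 207, 188 and 243 (0.17, 95% interval -0.10 to 0.44, limma adjusted p = 0.34), and the ratio of *Fads1* to *Fads2* differed by 0.13 (exact two-sided permutation p = 0.4). *Elovl6*, which lengthens palmitate, had 386, 291 and 318 against 329, 373 and 369 (0.11, interval -0.10 to 0.33, limma adjusted p = 0.44).

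Summed over genes of a role, normalized counts were 4961 ± 191 (SD, n = 3) in *Ctrl* and 6172 ± 87.0 in *Tet iTKO* mESC for fatty acid synthesis, 124% of *Ctrl*, and 1390 ± 21.4 and 1742 ± 22.8 for the regulators, 125%. The squalene-to-cholesterol enzymes summed to 4310 ± 41.9 and 4071 ± 106, 94.4%, and the mevalonate enzymes to 3076 ± 103 and 3068 ± 41.5, 99.7%. The sums of the mevalonate enzymes overlapped between groups, and the others did not. With equal totals the squalene-to-cholesterol sum of *Tet iTKO* was 100% of *Ctrl* and with quantile normalization 99.2%, both with overlap, while the mevalonate sum rose to 106% under each, without overlap. After correction for GC content and length, fatty acid synthesis stood at 104%, with overlap, and the regulators at 106%, without. Fatty acid oxidation, the opposite route, summed to 4591 ± 130 and 3858 ± 135 over 13 genes, 84.0%, and stayed below *Ctrl* without overlap under these alternatives (83.1% to 89.1%), which were added after the values were seen.

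**Figure D4:**
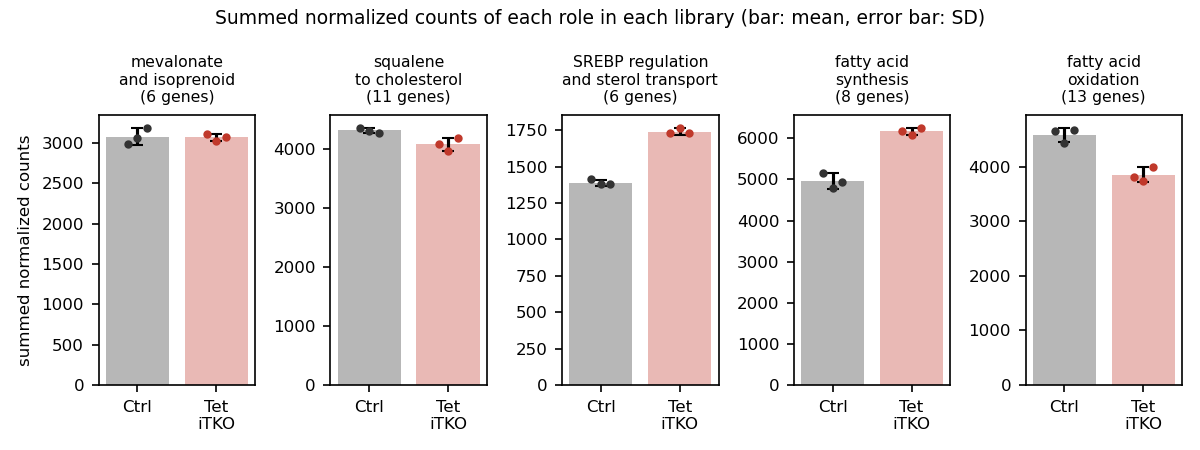
Sum of normalized counts over the genes of each role in each library. As deposited, the fatty acid synthesis and regulator sums are higher in *Tet iTKO*, the squalene-to-cholesterol and fatty acid oxidation sums lower, and the mevalonate sums overlap. With equal totals the squalene-to-cholesterol sums overlap as well.

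Levels between genes were set side by side per length of the longest annotated transcript of each gene. That transcript need not be the one expressed, so the order could differ with another choice, and none was tried. In *Ctrl*, *Acly* was highest at 517 ± 14 (SD, n = 3) normalized counts per kilobase, then *Fdps* at 460 ± 18.6, and *Acat2* and *Fdft1* stood together at 269 ± 18.2 and 259 ± 4.4, closer than their spread. *Stard4* (3.2 ± 0.113), *Acaca* (3.96 ± 2.22) and *Hsd17b7* (7.3 ± 2.28) were the lowest, and *Stard4* and *Acaca* did not differ beyond their spread. *Fasn* stood at 107 ± 3.1 in *Ctrl* and 163 ± 4.95 in *Tet iTKO* and *Srebf2* at 98.5 ± 1.78 and 135 ± 11.4. *Acly* and *Fdps* were also the most abundant in *Tet iTKO*, at 558 ± 9.88 and 485 ± 15.5. Among libraries the coefficient of variation had a median of 7.11% in *Ctrl* (1.49% to 56.1%) and of 5.05% in *Tet iTKO* (1.22% to 29.2%) over the 31 genes.

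**Figure D5:**
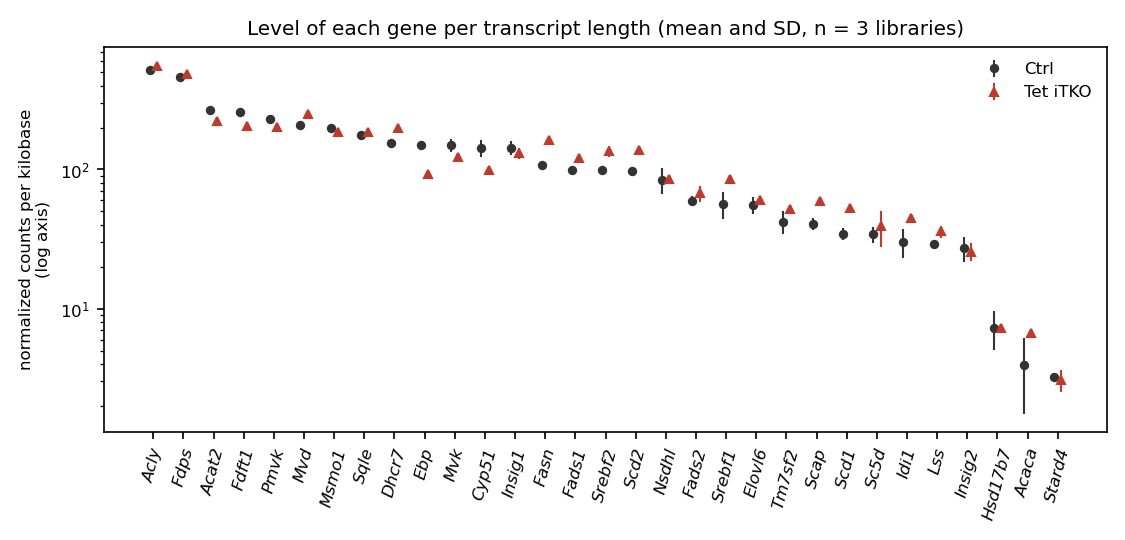
Normalized counts per kilobase of the longest annotated transcript (log axis) for each of the 31 genes in *Ctrl* and *Tet iTKO* mESC. Genes are ordered by the *Ctrl* level, with means and SD (n = 3 libraries). Levels run from 517 for *Acly* to 3.2 for *Stard4* in *Ctrl*.

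A second list held 77 further genes of sterol and fatty acid handling. Of the 64 tested, 11 were higher (17.2%) and 6 lower (9.38%), with a median log2 fold change of 0.08, beside 16.4% and 18.4% of all genes. After correction 9 were higher and 9 lower, beside 12.3% and 14.3% of all genes. Fatty acid oxidation had 3 of 11 genes lower. *Acadm*, medium-chain acyl-CoA dehydrogenase, had 876, 791 and 798 normalized counts in *Ctrl*, against 587, 518 and 484 in *Tet iTKO* (-0.64, limma adjusted p = 7.7e-08), *Hadh*, which acts later in the cycle, 1095, 1064 and 1081 against 756, 777 and 846 (-0.45, adjusted p = 2.5e-06), and *Slc25a20*, the carnitine carrier, 453, 459 and 510 against 326, 326 and 301 (adjusted p = 8.3e-06). All 3 kept their call after correction. The 1 gene of that list that rose was *Cpt2*, carnitine palmitoyltransferase (140, 117 and 126 against 210, 149 and 201, 0.53, adjusted p = 0.0061), and its call was lost without *Tet iTKO* replicate 1 (adjusted p = 0.057).

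Sterol uptake, storage and efflux had 5 of 13 genes higher and 1 lower. *Soat1*, which esterifies cholesterol, had 33, 34 and 20 normalized counts in *Ctrl*, against 48, 92 and 62 in *Tet iTKO* (1.17, limma adjusted p = 0.0023), *Abcg1*, an efflux carrier, 6, 9 and 0 against 36, 16 and 15 (2.39, adjusted p = 0.008), and *Vldlr*, a lipoprotein receptor, 7, 1 and 3 against 21, 18 and 10 (2.06, adjusted p = 0.019). These 3 rest on few counts, and the highest adjusted p on leaving out a library was 0.052 for *Soat1* (*Tet iTKO* replicate 2), 0.099 for *Abcg1* and 0.11 for *Vldlr*. *Abcg1* was not called without *Ctrl* replicate 3 or *Tet iTKO* replicate 1, nor *Vldlr* without *Ctrl* replicate 2, *Tet iTKO* replicate 1 or *Tet iTKO* replicate 2. *Nr1h2*, a sterol-sensing nuclear receptor, had 606, 625 and 584 against 714, 746 and 739 (0.28, adjusted p = 0.0039), and was not called after correction (0.12, adjusted p = 0.26). *Npc2*, which moves cholesterol out of lysosomes, was the gene that fell, at 1426, 1617 and 1587 against 1188, 1094 and 1127 (-0.44, adjusted p = 7.6e-07).

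Smaller numbers of calls fell on the remaining lists, all given with limma adjusted p. Other sterol synthesis had 0 of 5 genes called, and 1 was lower at an unadjusted limma p under 0.05. Of 16 further genes of fatty acid synthesis, *Slc25a1*, the citrate carrier, rose (743, 808 and 805 against 929, 934 and 1007, 0.28, adjusted p = 0.0015), while *Me1*, malic enzyme, fell (150, 177 and 168 against 133, 106 and 97, -0.56, adjusted p = 0.0054), as did *Hacd2*, a dehydratase of chain elongation (292, 296 and 307 against 237, 237 and 263, -0.28, adjusted p = 0.043). Triacylglycerol and phospholipid synthesis had 3 of 12 genes higher: *Agpat1*, an acyltransferase (214, 220 and 231 against 292, 351 and 344, 0.56, adjusted p = 0.00013), *Lpin3*, a phosphatidate phosphatase (23, 20 and 27 against 38, 47 and 42, 0.84, adjusted p = 0.045), and *Pcyt2*, of phosphatidylethanolamine synthesis (322, 418 and 404 against 444, 475 and 454, 0.27, adjusted p = 0.029). *Hacd2* and *Lpin3* kept their call in 1 of the 6 fits that left out a library and *Pcyt2* in 3, and after correction none of these 3 was called.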

How the data were processed

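RNA from 3 *Ctrl* and 3 *Tet iTKO* mESC libraries was analysed. The authors aligned Smart-Seq2 reads with STAR (unique alignments only), took gene counts with HTSeq 0.7.1 (strand option yes, although the protocol keeps no strand) and scaled them with DESeq2 1.26.0 in R 3.5.2, on mm9 per the submitters' processing notes. The deposited values have the unit score: normalized counts rounded to whole numbers, not reads, so no count model was fitted. The reads behind each value are not given, and the number of libraries limits the precision.

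Identifiers were paired with symbols of the GENCODE M21 annotation, and with the length and GC content of the longest transcript of each gene there (20775 of 22380). Genes with a mean of at least 10 were tested with limma 3.58.1 in R 4.3.3 (lmFit, eBayes with trend) on log2(normalized count + 1), which understates changes of low genes, with Benjamini-Hochberg adjustment over 10524 genes and a threshold of 0.05. The correction subtracted a loess fit (span 0.3) on GC content and log2 length. Ratios were compared by exact two-sided permutation tests. Tables were handled in Python 3.11.15. Named genes are all listed genes, the called genes of the second list, the *Tet* genes and genes sharing exons or sequence. Some genes of the second list are counted but not reported singly here. The members, lists and tests were chosen with earlier results of these data known. Alternatives were other pseudocounts, filters, scalings, no trend, a fold threshold, a replicate block and each library left out.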

Additional observations from a re-analysis of the deposited data

How the results depend on the processing

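Counts of genes higher and lower were 1731 and 1934 over all genes, 11 and 5 over the listed genes and 11 and 6 over the second list. Without a variance trend they were 1075 and 1217 over all genes, 6 and 3 over the listed genes, and 7 higher on the second list. With a log2 fold threshold of 0.5 they were 1074 and 833, 7 and 2, and 3 lower on the second list. With equal totals the listed genes had 3 lower and the second list 17 higher, and with quantile normalization the listed genes had 3 lower. A mean of at least 50 gave 7 higher on the second list. After correction for GC content and length, with or without the block, 4 listed genes were higher. The median log2 fold change of the listed genes, 0.11, was 0.16 with a mean of at least 50, 0.20 with equal totals, 0.18 with quantile normalization and 0.07 after correction, with or without the block. Over all genes tested that median was 0.012, and it was -0.026, 0.096, -0.0067 and 0.0053 in the same order, so equal totals raised all genes alike. The cause of the other shifts was not tested.

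Leaving out each library in turn gave 1335 to 1635 genes higher and 1642 to 1722 lower, 8 to 12 listed genes higher and 4 to 5 lower, 7 to 12 genes of the second list higher (7 without *Tet iTKO* replicate 2) and 5 to 7 lower, and a median of 0.09 to 0.23. Differences of log2 ratios were taken as *Tet iTKO* minus *Ctrl*. With each library left out in turn, they ranged from -0.19 to 0.14 for *Insig1* to *Insig2* and from -0.73 to -0.58 for *Insig1* to *Scap*. They ranged from 0.05 to 0.14 for *Scd1* to *Scd2*, 0.03 to 0.33 for *Srebf1* to *Srebf2* and 0.04 to 0.23 for *Fads1* to *Fads2*. With no replicate left out, the correction gave a difference of -0.19 for *Insig1* to *Scap*, chosen after seeing the data.

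Genes whose sign turned were not called in either fit, except *Fasn*. After correction *Fasn* and *Acly* stood at -0.04, *Msmo1* at 0.06 and *Insig2* at 0.07, alike with the block. With equal totals, which raised the median of all genes from 0.012 to 0.096, *Insig2* and *Stard4* stood at 0.01, and with quantile normalization *Hsd17b7* at -0.17. Without each library in turn *Nsdhl* ranged from -0.15 to 0.15, *Hsd17b7* from -0.21 to 0.24, *Sc5d* from -0.05 to 0.38 and *Insig2* from -0.19 to 0.08.

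Replicate numbers were not taken to pair libraries, since the labels tie no library to an embryo or an experiment. The reporting summary gives mESC from separate embryos for each genotype, and the paper describes its RNA data as independent experiments. Deviations of same-numbered libraries from their group means correlated at 0.000706, -0.00543 and -0.00314, and libraries did not all correlate best with their own number. A replicate block gave 1762 genes higher and 1980 lower, 11 and 5 listed genes, and 11 and 8 of the second list, with no call of a listed gene changed.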
